A study of Mus musculus with 9 samples.

Results

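Read counts from unstimulated macrophages were searched for 9 genes of glycogen synthesis and breakdown, namely Ppp1r3b, Ppp1r3c, Ppp1r3d, Ugp2, Gyg, Gys1, Gbe1, Pygb and Pygl. The 9 symbols were matched to mouse Ensembl identifiers among the 55487 genes of the lists. Of the 9 genes, 6 were detected well enough to be tested, among 14312 tested genes in all. The group was chosen by the levels of Ppp1r3b in the 3 genotypes, so these levels are given as a description without a test. The rule of choice names no level of the other 8 genes. All members were chosen with earlier results of these data known, so the tests of these 8 are not independent of the data.

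All libraries are RNA from RAW264.7, an established mouse macrophage line, cultured without any stimulus. Wild-type macrophages carry intact C/EBPδ, a transcription factor of the CCAAT/enhancer-binding protein family. Knock-out macrophages are homozygous for a CRISPR/Cas9 disruption of Cebpd, and ΔTAD macrophages carry an endogenous Cebpd from which the transactivation domain was removed, so that the mutant protein is made under its own promoter and can still bind DNA. Each genotype has 3 libraries, and whether these come from separate clones or from cultures of 1 clone is not given in the sources used here. The p-values therefore measure the spread between these libraries, which may be technical. What distinguishes the edited lines from wild-type or from each other cannot be told apart from clonal origin.

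Glycogen is a branched polymer of glucose. Its synthesis starts from UDP-glucose, is primed on glycogenin, is elongated by glycogen synthase and is branched by the branching enzyme, whereas glycogen phosphorylase releases glucose-1-phosphate from its chains. Protein phosphatase 1 (PP1) activates the synthase and inactivates the phosphorylase by removing phosphate groups, and it is brought to the glycogen particle by targeting subunits of the PPP1R3 family. Ppp1r3b encodes the subunit known as GL, best known from liver, and Ppp1r3c encodes PTG.

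The libraries held between 16113306 and 20981829 counts on genes, so that 3 counts, taken here as the floor of detection, correspond to a level of 0.143 to 0.210 CPM (counts relative to 1e+06 counts of the library, scaled by TMM). ΔTAD library 1 stood apart, since a single gene, CT010467.1, took 11.0% of its counts against 0.303% to 1.16% elsewhere. Cebpd mRNA itself was counted in all genotypes, at 6.13, 7.29 and 6.12 CPM in wild-type, 5.22, 5.50 and 5.61 CPM in knock-out and 4.90, 5.23 and 6.19 CPM in ΔTAD libraries, and such gene counts do not tell the edited alleles apart. All 10 macrophage markers examined exceeded 3 counts. Their summed level lay between 3881 and 4072 CPM in wild-type, between 5453 and 5883 CPM in knock-out and between 7909 and 8124 CPM in ΔTAD macrophages. Most of this step is Lyz2, lysozyme, at 1167, 2114 and 4192 CPM in the same order, while Fcgr1, an Fc receptor, was lower in both edited lines (-1.14 and -0.44, edgeR adjusted p = 2.24e-12 and 5.58e-06). Of 8 hepatocyte markers none exceeded 3 counts in any library, and 4 of them, including albumin (Alb) and transthyretin (Ttr), stood at 0 in all libraries. Of 8 skeletal muscle markers 3 exceeded 3 counts in at least 1 library, with a summed level of 0.521 to 0.698 CPM in wild-type, 1.05 to 1.42 CPM in knock-out and 0.630 to 1.10 CPM in ΔTAD macrophages.

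Ppp1r3b was counted in ΔTAD macrophages and next to absent elsewhere. The gene (ENSMUSG00000046794) spans positions 35375739 to 35388139 of chromosome 8 in GRCm38 and is read from the plus strand. The 3 ΔTAD libraries held 87, 132 and 136 counts, the knock-out libraries 0, 0 and 0, and the wild-type libraries 0, 0 and 1. The ΔTAD libraries did not overlap with the others and lay close together at 6.09, 6.34 and 6.47 CPM, a mean of 6.30 ± 0.196 (SD, n = 3). Against the floor of 3 counts in each knock-out library, this level was at least 37.1-fold higher. Against the single count of the wild-type libraries, the ratio scaled for depth was 341. Its 95% interval of 60.7 to 13500 pools the libraries and covers counting error only. It is no test of the difference, since these levels served to choose the group. In bulk RNA a few cells with much of a transcript and many cells with little of it cannot be told apart. The level of Ppp1r3b in ΔTAD macrophages was itself modest, above that of 32.8% of the tested genes. On the opposite strand its start is overlapped by Gm45469, a noncoding gene with 0 counts in all 9 libraries.

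**Figure D1:**
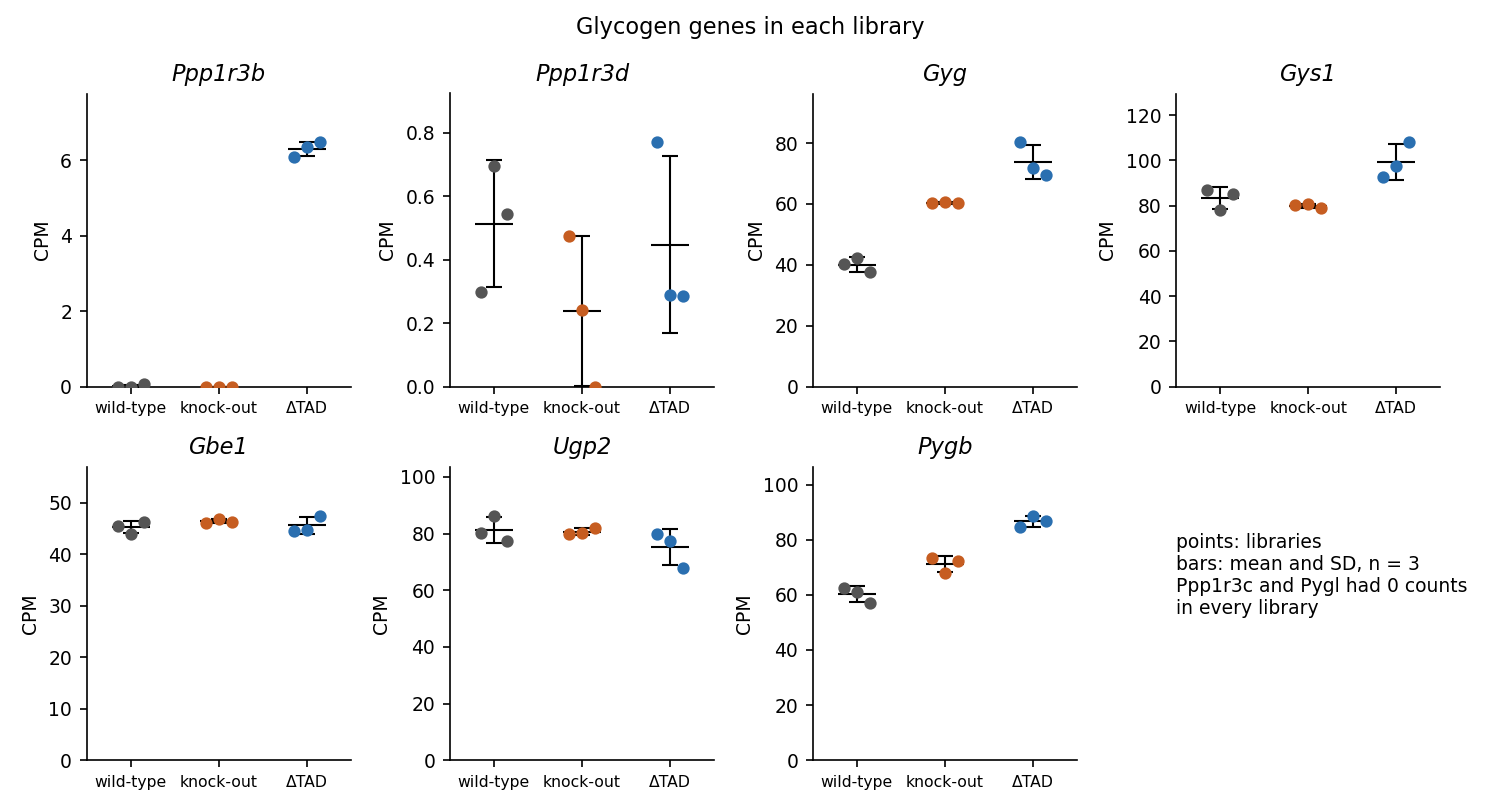
Level of 7 glycogen genes in CPM (vertical axes, linear from 0) in the 3 wild-type, 3 knock-out and 3 ΔTAD libraries, with points for libraries and bars for mean and SD. Ppp1r3b lies at 6.09 to 6.47 CPM in ΔTAD libraries and at or near 0 in the other libraries, Gyg and Pygb step up from wild-type to knock-out to ΔTAD, and Gbe1 and Ugp2 overlap between genotypes.

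By counts, 24 genes had more than 3 in each ΔTAD library and at most 3 in each of the other 6. This cut can part 4 counts from 3, so genes near the floor pass it. Of the 24, 4 had at least 10 counts in each ΔTAD library, Ppp1r3b being among them. Ppp1r3b had the highest level of the 24. The next were Aldh1l1, a folate enzyme, at 1.004 ± 0.0927 CPM and the predicted gene Gm6587 at 0.996 ± 0.101 CPM (SD, n = 3). Under the same cut 15 genes were listed for knock-out libraries, led by Sema6d at 1.36 ± 0.137 CPM. For wild-type libraries 114 were listed, led by Emp2 at 34.7 ± 1.26 CPM and Cd86 at 6.17 ± 0.550 CPM.

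**Figure D2:**
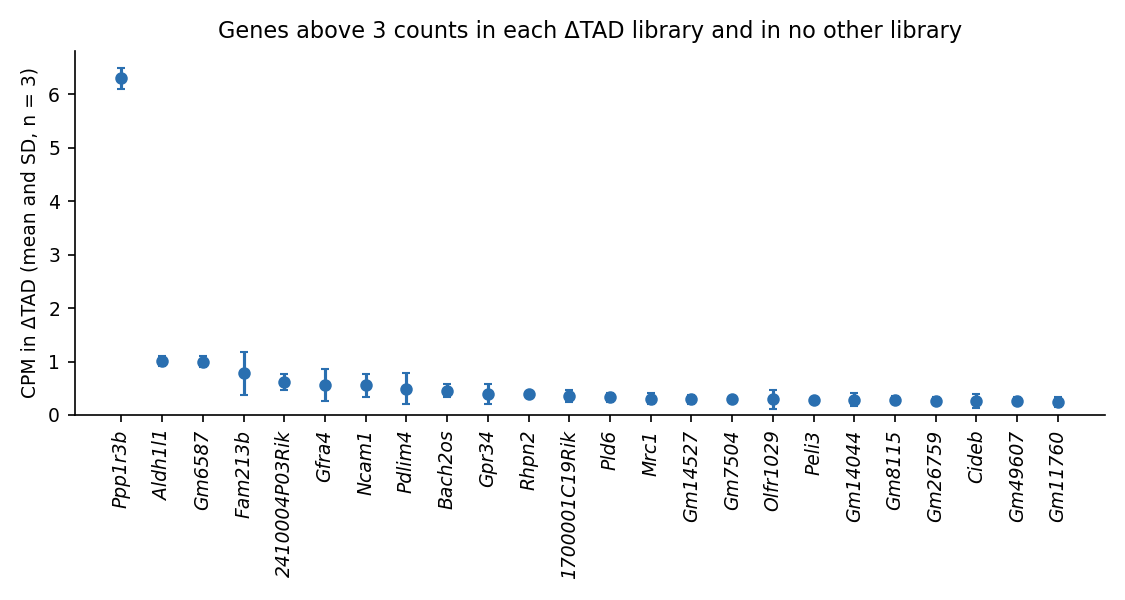
Level in ΔTAD macrophages (CPM, mean and SD of 3 libraries, linear axis from 0) of the 24 genes with more than 3 counts in each ΔTAD library and at most 3 in every other library. Ppp1r3b stands at 6.30 CPM and the other genes at 1.004 CPM or less.

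Over the 9 libraries the tested genes whose log2 CPM followed that of Ppp1r3b most closely were Gm6587 (Pearson r = 0.997), Rab32 (0.996), Ly9 (0.994), Asap1 (0.994) and Nf2 (0.994). These coefficients are given as a description, since the 9 points fall into 2 clusters, ΔTAD and the rest. The size of the step differed among these genes. Rab32, a small GTPase, lay at 31.2 ± 0.224 CPM in wild-type, 30.1 ± 1.45 CPM in knock-out and 66.0 ± 1.57 CPM in ΔTAD macrophages. Ly9, a receptor of the SLAM family, lay at 39.1 ± 2.07, 39.9 ± 2.83 and 110 ± 2.32 CPM in the same order.

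The tested genes around Ppp1r3b did not share its distribution. Within 1 Mb of its start the annotation holds 8 other protein-coding genes, of which 5 were tested. Beside a background of 49.7% of all tested genes called in ΔTAD against wild-type macrophages, 3 of the 5 were called, all higher in ΔTAD. Called means here that the quasi-likelihood test of edgeR gave an adjusted p under 0.01, with the Benjamini-Hochberg adjustment made over the 14312 genes. Dusp4, a phosphatase of MAP kinases starting at -568 kb, lay at 111.6, 110.2 and 107.5 CPM in wild-type, 199.3, 197.3 and 199.2 CPM in knock-out and 195.9, 196.3 and 187.1 CPM in ΔTAD libraries. It was higher by 0.85 on the log2 scale in knock-out (SE 0.0351, edgeR adjusted p = 2.96e-16) and by 0.81 in ΔTAD macrophages (SE 0.0351, adjusted p = 6.18e-16), so its higher level was not particular to the genotype with Ppp1r3b. Eri1, an exonuclease gene 89.5 kb downstream, was higher in ΔTAD than in wild-type macrophages by 0.21 (SE 0.0344, edgeR adjusted p = 9.81e-06), but by 0.12 without a call with library size alone (adjusted p = 0.0744). The difference between knock-out and ΔTAD of -0.13 (adjusted p = 0.00253) was no longer called with library size alone (-0.06, adjusted p = 0.469), with DESeq2 (adjusted p = 0.0159), without knock-out library 2 (-0.11, adjusted p = 0.0199) or without ΔTAD library 1 (-0.10, adjusted p = 0.0522). Prag1, named after its values were seen as the third of the called genes, was higher in ΔTAD by 0.17 (SE 0.0475, edgeR adjusted p = 0.00301), a call lost with library size alone (0.09, adjusted p = 0.301), with DESeq2 (adjusted p = 0.0179) and without ΔTAD library 2 (0.16, adjusted p = 0.016), ΔTAD library 3 (0.15, adjusted p = 0.0221) or wild-type library 3 (0.15, adjusted p = 0.0227).

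Tnks, which encodes tankyrase and has its lower coordinate at -549 kb, was higher in knock-out than in wild-type macrophages by 0.13 (edgeR adjusted p = 0.00197), a call lost with library size alone (0.11, adjusted p = 0.125) and without wild-type library 3 (0.12, adjusted p = 0.0112), while ΔTAD differed from wild-type by 0.01 (adjusted p = 0.853). Mfhas1, the next gene downstream after Eri1 at 212 kb, was the only neighbour with counts in ΔTAD libraries alone, but these were 2, 4 and 2 counts, around the floor. Gm19410 at 390 kb had 0 counts throughout. The median log2 fold change of the 18 tested genes within 2 Mb of Ppp1r3b was 0.03 for ΔTAD and 0.07 for knock-out against wild-type macrophages.

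**Figure D3:**
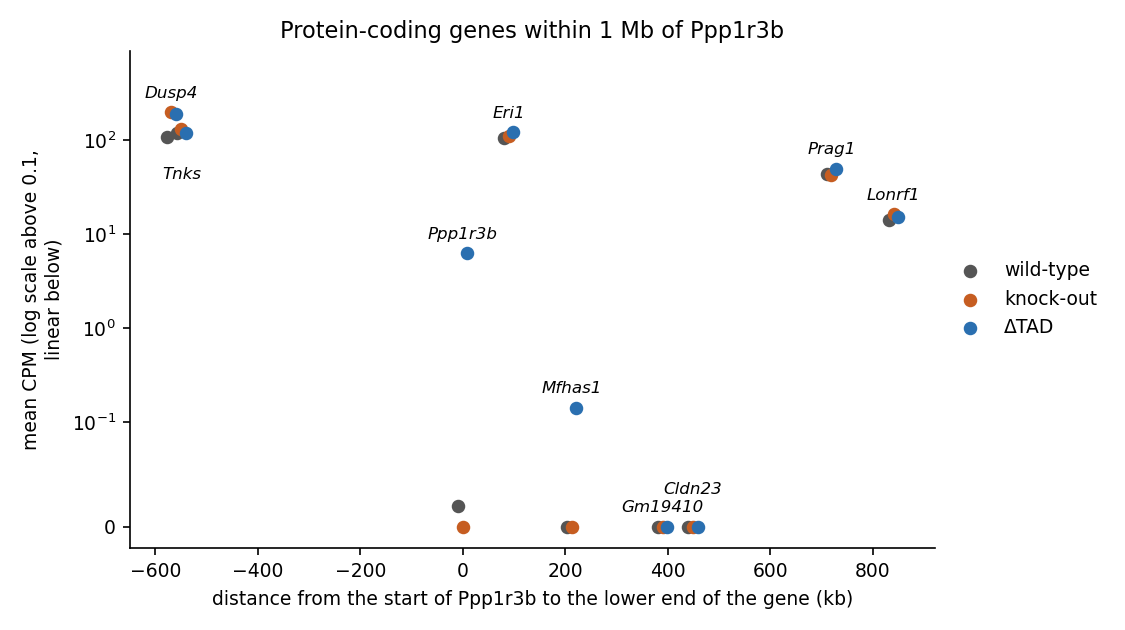
Mean CPM of Ppp1r3b and the 8 other protein-coding genes within 1 Mb (vertical axis, logarithmic above 0.1 and linear below) against the distance in kb from the start of Ppp1r3b to the lower coordinate of each gene, with 1 point per genotype, set slightly apart sideways. Ppp1r3b separates the ΔTAD point at 6.30 CPM from the other genotypes, while the tested neighbours have points above 0 in all genotypes. Mfhas1, not tested, has its ΔTAD point at 0.142 CPM and the other points at 0.

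The other targeting subunits were low in all genotypes. Ppp1r3d (ENSMUSG00000049999, chromosome 2, 178411206 to 178414472, minus strand), which encodes another subunit that binds PP1 and glycogen, had 6, 12 and 9 counts in wild-type, 9, 4 and 0 in knock-out and 11, 6 and 6 in ΔTAD libraries. The genotypes overlapped, and the gene was too low to be tested. Ppp1r3c (ENSMUSG00000067279, chromosome 19, 36731731 to 36736653, minus strand) had 0 counts in each of the 9 libraries, which at this depth allows up to 3 counts or 0.210 CPM in the library with the highest floor. Among the subunits outside the 9 genes, Ppp1r3a and Ppp1r3g did not exceed 3 counts in any library, and Ppp1r3f was tested without passing against wild-type in knock-out (0.36, SE 0.295, edgeR adjusted p = 0.327) or ΔTAD macrophages (-0.29, SE 0.320, adjusted p = 0.446). Ppp1r3e had 42, 34 and 33 counts in wild-type, 22, 22 and 17 in knock-out and 19, 24 and 22 in ΔTAD libraries. Both edited lines lay below all wild-type libraries, by -0.81 in knock-out (SE 0.227, edgeR adjusted p = 0.00375) and -0.80 in ΔTAD (SE 0.224, adjusted p = 0.00364). These calls were lost with DESeq2 (adjusted p = 0.0223 and 0.0208). For knock-out macrophages the call was also lost without knock-out library 1 (-0.82, adjusted p = 0.0133), knock-out library 3 (-0.71, 0.0227), wild-type library 1 (-0.78, 0.0156) or wild-type library 2 (-0.82, 0.0101), and for ΔTAD macrophages without ΔTAD library 2 (-0.79, 0.0146), ΔTAD library 3 (-0.72, 0.0224) or wild-type library 1 (-0.77, 0.0144).

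Summed over the 7 PPP1R3 subunits, the wild-type libraries held 3.44, 3.18 and 3.997 CPM, the knock-out libraries 2.79, 2.96 and 2.21 CPM and the ΔTAD libraries 8.95, 8.60 and 8.61 CPM. Without Ppp1r3b the ΔTAD libraries held 2.87, 2.26 and 2.14 CPM, within the range of the knock-out libraries except for library 3, which lay just below it. On the scale of CPM per kb of exon, which allows genes of different length to be compared, Ppp1r3b made up 51.7%, 59.1% and 61.1% of the sum of the subunits in the 3 ΔTAD libraries.

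**Figure D4:**
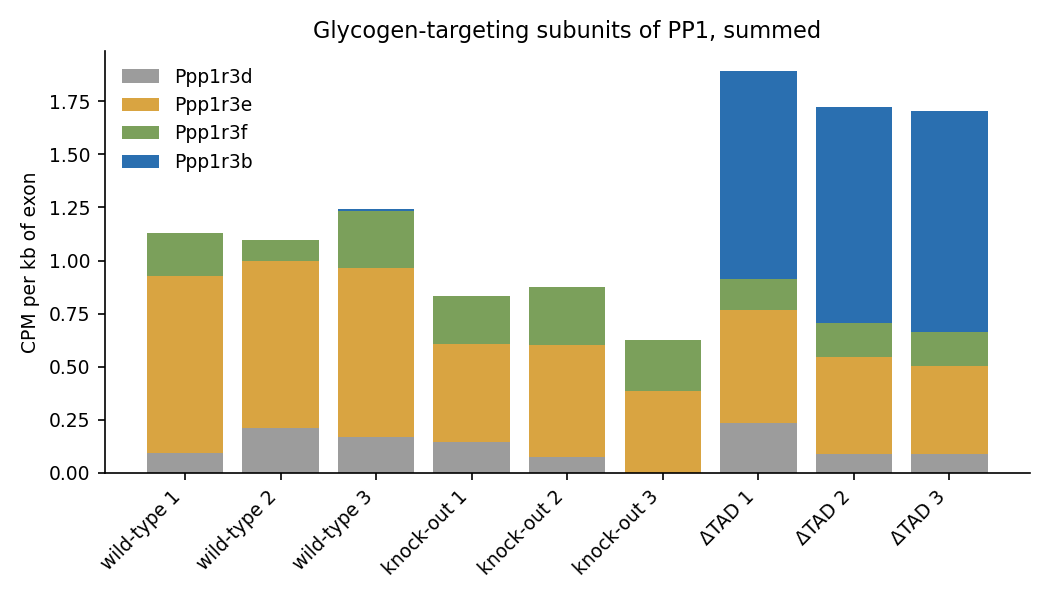
Level of the 4 detected glycogen-targeting subunits of PP1 in CPM per kb of exon (vertical axis, linear from 0), stacked for each of the 9 libraries. The Ppp1r3b segment makes up 51.7% to 61.1% of the ΔTAD bars and is near 0 in the others, and Ppp1r3e is the largest segment of the wild-type bars.

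Among the 5 tested enzymes of the group, 2 were called in knock-out against wild-type macrophages and 3 in ΔTAD against wild-type macrophages, all of them higher than in wild-type. Over all tested genes 45.2% and 49.7% were called in these comparisons (22.8% and 26.3% higher, 22.4% and 23.4% lower), and 2 and 3 of 5 are 40.0% and 60.0%, so the number of calls did not set the group apart from the other genes. The median log2 difference of the 5 from wild-type was 0.04 for knock-out and 0.26 for ΔTAD, beside medians near 0 over all tested genes. Both comparisons share the wild-type libraries. In the direct comparison of knock-out with ΔTAD macrophages 3 of 5 were called, all lower in knock-out, at a background of 33.0% called, 13.9% higher and 19.1% lower. The same genes had no overlap between the libraries compared, at a background of 59.7%, 63.1% and 52.8% of tested genes without overlap. The balance of calls over all genes depends on scaling, with 52.9% of the calls in ΔTAD against wild-type being higher with TMM and 39.6% with library size alone, and 42.1% of the calls in knock-out against ΔTAD with TMM and 69.0% with library size alone.

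Gyg, which encodes the glycogenin that primes each new particle, had the largest difference of the 5. Gyg (ENSMUSG00000019528, chromosome 3, 20122084 to 20155317, minus strand) lay at 40.2, 42.4 and 37.6 CPM in wild-type, 60.2, 60.6 and 60.2 CPM in knock-out and 80.2, 71.9 and 69.6 CPM in ΔTAD libraries. The genotypes formed 3 steps without overlap. On the log2 scale the difference from wild-type was 0.59 for knock-out (SE 0.0519, edgeR adjusted p = 5.78e-10) and 0.88 for ΔTAD (SE 0.0504, adjusted p = 1.68e-13), 1.51-fold and 1.83-fold. Knock-out lay below ΔTAD by -0.29 (SE 0.0475, edgeR adjusted p = 3.25e-05). The 8 tested genes within 2 Mb of Gyg had median differences of -0.05 for knock-out and -0.01 for ΔTAD.

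Gys1, the glycogen synthase of muscle and most other tissues, was higher in ΔTAD macrophages only among the edited lines, and knock-out differed from ΔTAD in the direct test. Gys1 (ENSMUSG00000003865, chromosome 7, 45434844 to 45456619, plus strand) lay at 87.1, 78.0 and 85.3 CPM in wild-type, 80.1, 80.7 and 79.0 CPM in knock-out and 92.6, 97.5 and 108 CPM in ΔTAD libraries. All ΔTAD libraries lay above all others, while wild-type and knock-out overlapped. ΔTAD exceeded wild-type by a log2 fold change of 0.26 (SE 0.0458, edgeR adjusted p = 3.54e-05), 1.19-fold, and exceeded knock-out, which lay at -0.32 relative to it (SE 0.0461, adjusted p = 5.44e-06). Knock-out against wild-type gave -0.06 (SE 0.0472, edgeR adjusted p = 0.273). With library size alone as the scaling, the difference of ΔTAD from wild-type was 0.17 and no longer called (adjusted p = 0.0128). The 100 tested genes within 2 Mb of Gys1 had median log2 differences from wild-type of -0.03 for knock-out and 0.07 for ΔTAD. Their median for knock-out against ΔTAD was -0.12. The part of this local shift in the differences of Gys1 was not tested. The 5′ end of Gys1 overlaps Ruvbl2 on the minus strand, and since the strand setting of the counting is not given in the sources used here, reads in the overlap are uncertain. Ruvbl2 moved the other way, by -0.50 for knock-out and by -0.20 for ΔTAD, both called (edgeR adjusted p = 4.65e-11 and 5.72e-05).

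Because C/EBPδ belongs to the proteins named for the CCAAT box, the promoter letters of these genes were read from RefSeq (GRCm38.p6). Of the 9 genes 8 had an entry, the exception being Ppp1r3b. In the 250 bases before the start, CCAAT on either strand occurs at least once in 33.8% of all 32851 promoters. TTGCNNAA, a pattern of C/EBP sites, occurs at least once in 9.60%. Gys1, which differed between ΔTAD and the other genotypes, holds 4 CCAAT matches, on the plus strand at 55 to 51, 96 to 92 and 181 to 177 bases before the start and on the minus strand at 216 to 212. Ugp2, which did not pass the test in any comparison, holds in the more upstream of its 2 entries a CCAAT match at 49 to 45 and a TTGCNNAA match at 36 to 29 bases before the start, both on the strand opposite to the gene. Ppp1r3c holds 1 CCAAT match, and Gyg, Pygb, Gbe1, Ppp1r3d and Pygl hold neither motif. Epm2a and Nhlrc1, pathway genes described below with wide differences, hold neither motif as well. Whether a match has a part in any difference was not tested. The stretches of Gys1 and Ugp2 that no annotated exon covers are shown in the direction of the gene, Gys1 at chr7:45434710-45434838 on the plus strand and Ugp2 at chr11:21371268-21371459 on the minus strand, with matches to the motifs in capitals. A match is a match of letters and not a bound site.
Gys1: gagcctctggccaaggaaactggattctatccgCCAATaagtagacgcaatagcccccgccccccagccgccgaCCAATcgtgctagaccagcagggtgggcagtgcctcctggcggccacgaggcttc
Ugp2: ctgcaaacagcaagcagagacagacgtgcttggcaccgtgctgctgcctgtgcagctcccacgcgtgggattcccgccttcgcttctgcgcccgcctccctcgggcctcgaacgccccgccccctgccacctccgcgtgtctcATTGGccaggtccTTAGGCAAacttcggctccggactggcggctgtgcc

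Pygb, the brain form of glycogen phosphorylase, rose in both edited lines. Pygb (ENSMUSG00000033059, chromosome 2, 150786735 to 150831758, plus strand) lay at 62.5, 61.2 and 57.0 CPM in wild-type, 73.3, 68.1 and 72.4 CPM in knock-out and 84.6, 88.7 and 86.8 CPM in ΔTAD libraries. As for Gyg, the genotypes formed 3 steps without overlap. On the log2 scale it exceeded wild-type by 0.24 for knock-out (SE 0.0410, edgeR adjusted p = 2.07e-05) and 0.52 for ΔTAD (SE 0.0398, adjusted p = 3.25e-11), and knock-out lay at -0.28 relative to ΔTAD (SE 0.0390, adjusted p = 2.75e-06). Pygl (ENSMUSG00000021069, chromosome 12, 70190811 to 70231488, minus strand), the liver form, had 0 counts in every library. Pygm, the muscle form, was low at 1.28 CPM in wild-type, 1.41 CPM in knock-out and 0.870 CPM in ΔTAD macrophages, and was not called in knock-out (0.14, SE 0.279, edgeR adjusted p = 0.705) or ΔTAD (-0.55, SE 0.304, adjusted p = 0.123).

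Ugp2, which makes UDP-glucose, and Gbe1, which adds the branches, did not pass the test in any of the 3 comparisons. Gbe1 (ENSMUSG00000022707, chromosome 16, 70313949 to 70569716, plus strand) lay at 45.6, 44.0 and 46.3 CPM in wild-type, 46.1, 46.8 and 46.4 CPM in knock-out and 44.6, 44.8 and 47.5 CPM in ΔTAD libraries. Its log2 differences from wild-type were 0.04 for knock-out (SE 0.0463, edgeR adjusted p = 0.548) and 0.01 for ΔTAD (SE 0.0461, adjusted p = 0.845). Ugp2 (ENSMUSG00000001891, chromosome 11, 21321138 to 21371201, minus strand) lay at 80.2, 86.2 and 77.3 CPM in wild-type, 79.7, 80.2 and 82.0 CPM in knock-out and 80.0, 77.5 and 67.9 CPM in ΔTAD libraries. The genotypes overlapped, with the lowest value in ΔTAD library 3. Its log2 difference was -0.01 for knock-out (SE 0.0475, edgeR adjusted p = 0.864) and -0.12 for ΔTAD (SE 0.0477, adjusted p = 0.0347). Without ΔTAD library 1, the one with 11% of its counts on 1 gene, Ugp2 was called lower in ΔTAD than in wild-type (-0.19, edgeR adjusted p = 0.00153) and higher in knock-out than in ΔTAD (0.18, adjusted p = 0.00478), and the former was also called with library size alone (-0.21, adjusted p = 0.00238).

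Per kb of exon, the order of the levels in wild-type macrophages was Ugp2 at 26.5 ± 1.49, Gys1 at 17.4 ± 1.01, Gyg at 17.1 ± 1.02, Pygb at 12.5 ± 0.596 and Gbe1 at 8.46 ± 0.223 CPM per kb (SD, n = 3), of which Gys1 and Gyg did not differ beyond their spread. In knock-out macrophages Gyg at 25.7 ± 0.108 CPM per kb lay next to Ugp2 at 26.3 ± 0.391. In ΔTAD macrophages Gyg came first at 31.5 ± 2.38 CPM per kb, above Ugp2 at 24.5 ± 2.07, Gys1 at 20.8 ± 1.65 and Pygb at 18.03 ± 0.421. Gbe1 at 8.52 ± 0.302 CPM per kb followed, and Ppp1r3b at 1.01 ± 0.0316 lay below the enzymes but above Ppp1r3d at 0.137 ± 0.0853.

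Around these 9 genes, 54 further genes of the pathway were listed, from the other PP1 subunits and kinases to glucose entry, and 43 of them were tested. Against wild-type 22 were called in knock-out macrophages, 13 higher and 9 lower, and 22 in ΔTAD macrophages, 17 higher and 5 lower. With library size alone as the scaling, 15 were called in ΔTAD macrophages, 8 higher and 7 lower. The main counts are 51.2% of the tested genes in either comparison, next to backgrounds of 45.2% and 49.7%. In knock-out against ΔTAD 15 were called (34.9%, background 33.0%), 2 higher and 13 lower in knock-out. The median log2 fold changes of the 43 genes were 0.02, 0.08 and -0.06. The genes that did not exceed 3 counts in any library include Ppp1r3a, Ppp1r3g, Gys2, Prkaa2, Prkag3, Stbd1, G6pc and P2ry14. Among them are the liver synthase and the glucose-6-phosphatase of liver.

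The widest differences concerned the pair of genes mutated in Lafora disease, in which poorly branched glycogen accumulates. Nhlrc1 encodes malin, a ubiquitin ligase, and had 82, 72 and 64 counts in wild-type, 6, 10 and 8 in knock-out and 49, 65 and 55 in ΔTAD libraries. The knock-out libraries stood far below all others. The log2 fold change in knock-out was -3.14 (SE 0.245, edgeR adjusted p = 6.16e-11) against wild-type and -2.72 (SE 0.258, adjusted p = 8.12e-09) against ΔTAD, while ΔTAD differed from wild-type by -0.42 without being called (SE 0.164, adjusted p = 0.0308). Epm2a encodes laforin, a phosphatase that acts on glycogen. In knock-out against wild-type it went the opposite way to Nhlrc1, while against ΔTAD both genes were lower in knock-out. Epm2a had 67, 47 and 43 counts in wild-type, 120, 92 and 115 in knock-out and 178, 242 and 236 in ΔTAD libraries. It rose by 1.08 in knock-out (SE 0.139, edgeR adjusted p = 3.63e-07) and by 2.00 in ΔTAD macrophages (SE 0.122, adjusted p = 4.79e-13), and knock-out lay below ΔTAD by -0.93 (SE 0.105, adjusted p = 1.44e-07). The genes within 2 Mb of Epm2a had median log2 differences of 0.07 for knock-out and 0.43 for ΔTAD, and the part of this local shift in the difference of Epm2a was not tested.

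Phosphoglucomutase links glucose-6-phosphate with glucose-1-phosphate. Pgm1 lay at 74.6, 72.4 and 69.8 CPM in wild-type, 91.1, 89.9 and 92.6 CPM in knock-out and 105.1, 115.3 and 111.6 CPM in ΔTAD libraries, which are the same 3 steps without overlap as for Gyg and Pygb. The log2 differences were 0.33 for knock-out (SE 0.0381, edgeR adjusted p = 5.24e-08), 0.62 for ΔTAD (SE 0.0371, adjusted p = 4.04e-13) and -0.28 for knock-out against ΔTAD (SE 0.0362, adjusted p = 9.96e-07).

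Phosphorylase kinase turns on the phosphorylase. Of its 7 tested subunit genes, calmodulins included, 4 were called in knock-out and 6 in ΔTAD against wild-type macrophages (57.1% and 85.7%, beside backgrounds of 45.2% and 49.7%), and 2 of the 6, Calm3 and Phkb, named after their values were seen, were not called with library size alone. Phka2 rose by 0.58 (SE 0.0332, edgeR adjusted p = 1.79e-13) and 0.48 (SE 0.0333, adjusted p = 6e-12). Calm2 rose by 0.68 and 0.76 (edgeR adjusted p = 9.21e-14 and 8.53e-15), on chromosome 17, where the median log2 fold change of all tested genes was 0.48 and 0.50. The part of this shift of a whole chromosome in the difference of Calm2 was not tested. For the called members of the group, on chromosomes 2, 3 and 7, the chromosome medians were between -0.05 and 0.00. Of the 7 tested genes of the kinases that phosphorylate glycogen synthase, 4 were called for knock-out and 3 for ΔTAD, in both directions, which is 57.1% and 42.9% beside the same backgrounds.

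**Figure D5:**
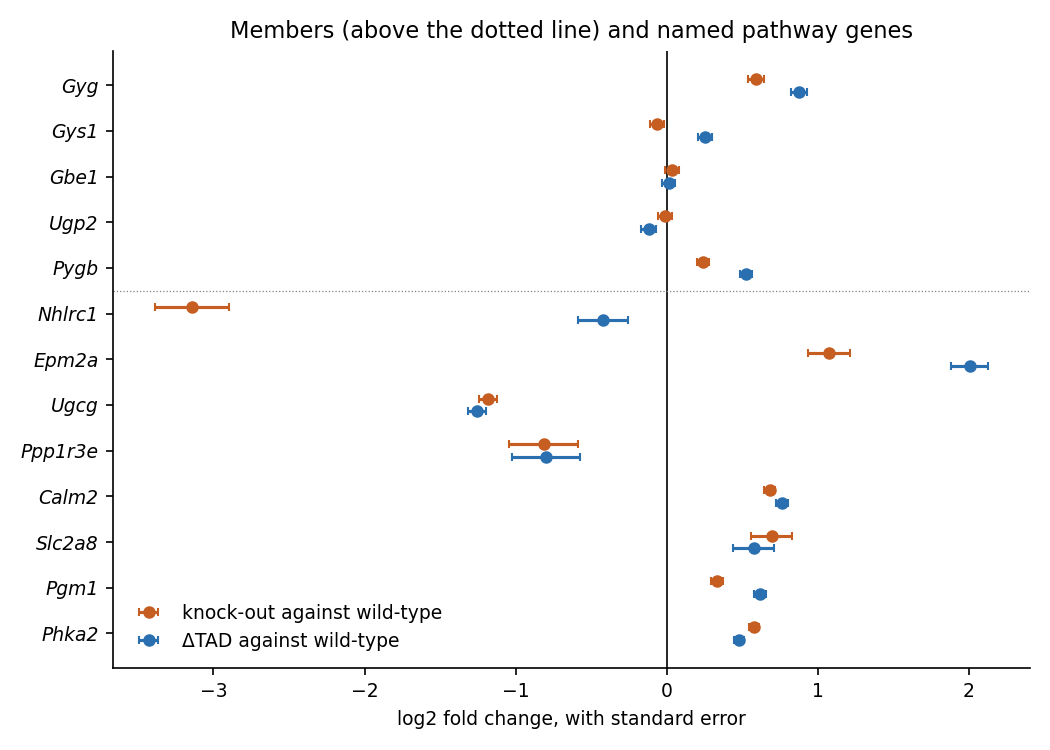
Log2 fold change against wild-type (horizontal axis, with SE) in knock-out and ΔTAD macrophages for the 5 tested enzymes and the 8 further pathway genes with the widest differences. Gyg and Pygb are higher in both lines and more so in ΔTAD, Nhlrc1 is at -3.14 in knock-out only, and Epm2a is at 1.08 and 2.00.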

How the data were processed

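Total RNA of 9 samples, 3 per genotype, was depleted of ribosomal RNA and sequenced. The authors used Trimmomatic for trimming, Hisat2 for alignment to GRCm38 and HTSeq for counting, and deposited raw counts per Ensembl gene without normalization. Tool versions differ between the labels and the methods, and the mode and strand setting of the counting are not given in the sources used here. The 5 tally lines of each list, 46.8% to 53.4% of its records, were left out. Replicate numbers are those of the donor labels, which run from 1 to 3 while the titles number the last library 5, 5 and 4. Positions are from GENCODE M21 on GRCm38. Symbols are from a separate reference of gene names, with the GENCODE symbol where that reference had none.

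Genes were kept by filterByExpr (minimum count 10, minimum total 15). One quasi-likelihood model with a mean per genotype was fitted to all libraries in edgeR 4.0.16 (R 4.3.3) with TMM factors from 0.888 to 1.027, and a gene was called at an adjusted p (Benjamini-Hochberg) under 0.01. The common biological coefficient of variation was 0.0468, and replicates differed beyond counting noise. Steps were tested on simulated data. Named are the 9 members, pathway genes called with a log2 difference of 0.5 or more in size and 1 CPM, the nearest neighbours and the 5 genes most correlated with Ppp1r3b, and others are said to be named after their values were seen. Some listed genes are counted but not reported here by name. The members and lists were chosen with earlier results of these data known. As alternatives, DESeq2 1.42.0 and limma-voom from limma 3.58.1 were run, with other scalings, filters and thresholds, models of 2 genotypes, a replicate block and leaving out each library.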

Additional observations from a re-analysis of the deposited data

How the results depend on the processing

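Values follow the order knock-out to wild-type, ΔTAD to wild-type, knock-out to ΔTAD, and the last 2 of these for the neighbours of Ppp1r3b. A required log2 difference of 1 or more in size left 0, 0 and 0 enzymes called, since no tested enzyme reached that size, 3, 2 and 1 further pathway genes and 0 and 0 neighbours. With library size alone, 8 pathway genes were called in knock-out against ΔTAD, 1 neighbour was called in either of its comparisons, and the mean of Ppp1r3b in ΔTAD was 6.08 CPM. Genes listed for ΔTAD numbered 10 with at most 1 count elsewhere and 4 with at least 10 counts in each ΔTAD library. Ppp1r3b was among them in either case. The log2 fold change of Gbe1 in ΔTAD against wild-type changed sign with library size alone (-0.0748) and with at least 10 counts in every library (-0.00634), and when some libraries were left out, without a call.

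Leaving out each library in turn gave 2 to 2, 3 to 4 and 3 to 4 enzymes called, 18 to 24, 16 to 23 and 11 to 16 pathway genes, 2 to 3 and 2 to 3 neighbours and a Ppp1r3b level of 6.21 to 6.41 CPM. Gbe1 in ΔTAD against wild-type then lay between -0.0218 and 0.0281 and Ugp2 in knock-out against wild-type between -0.0444 and 0.0410. The calls of Gyg and Pygb held in all alternatives other than the fold threshold. The call of Slc2a8 in ΔTAD was lost without ΔTAD replicate 2 (0.48, edgeR adjusted p = 0.0107). The call of Tnks in knock-out against ΔTAD (adjusted p = 0.00466) was lost when every gene with at least 1 count was kept (0.0373) and without knock-out replicate 1 (0.0135) or 3 (0.0145) or ΔTAD replicate 2 (0.0543) or 3 (0.0167).

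Same-numbered libraries did not deviate together (correlations of -0.07 to 0.02), beside -0.05 to 0.08 for libraries of different numbers. No pairing by number was seen, but values this small cannot exclude one. With the replicate number as a block, 2, 3 and 3 enzymes, 21, 22 and 14 pathway genes and 3 and 3 neighbours were called. Depth limits statements on Ppp1r3d, Ppp1r3c, Pygl and Mfhas1.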

Other observations

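Genes that bring glucose into the cell and to glucose-6-phosphate moved in both directions. Of 9 tested, 5 were called in knock-out against wild-type macrophages, 2 higher and 3 lower. In ΔTAD against wild-type 4 were called, 3 higher and 1 lower. In knock-out against ΔTAD 6 were called, 1 higher and 5 lower in knock-out. The backgrounds were 45.2%, 49.7% and 33.0% of all tested genes. With library size alone, G6pc3, Hk1 and Slc2a3, named after their values were seen, were no longer called in knock-out against ΔTAD. Slc2a8, a glucose transporter of internal membranes, lay at 3.44, 3.59 and 4.06 CPM in wild-type, 5.96, 5.86 and 6.06 CPM in knock-out and 4.76, 6.10 and 5.43 CPM in ΔTAD libraries. Its log2 fold changes were 0.69 (SE 0.136, edgeR adjusted p = 0.00011) and 0.58 (SE 0.136, adjusted p = 0.000816), the latter no longer called without ΔTAD library 2 (0.48, adjusted p = 0.0107). Among genes named after their values were seen, Hk3, a hexokinase of myeloid cells, was higher in knock-out alone of the edited lines, by 0.49 against wild-type (edgeR adjusted p = 1.46e-10) and by 0.44 against ΔTAD (adjusted p = 4.49e-09), while Slc2a6, another transporter, was higher in ΔTAD by 0.48 against wild-type (adjusted p = 6.6e-08) and lower in knock-out than in ΔTAD by -0.48 (adjusted p = 2.48e-07). Hk2 was lower in both, by -0.23 and -0.17 (edgeR adjusted p = 6.9e-06 and 0.000167).

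Of 6 tested genes that use UDP-glucose, 2 were called in knock-out and 3 in ΔTAD against wild-type macrophages, near or below the backgrounds of 45.2% and 49.7%. Ugcg, which transfers glucose from UDP-glucose to ceramide, lay at 65.4, 75.0 and 72.5 CPM in wild-type, 29.2, 33.2 and 31.4 CPM in knock-out and 30.9, 30.7 and 27.8 CPM in ΔTAD libraries. It fell by 1.18 on the log2 scale in knock-out (SE 0.0589, edgeR adjusted p = 1.24e-14) and by 1.26 in ΔTAD macrophages (SE 0.0590, adjusted p = 3.19e-15), and the edited lines did not differ by the test (0.07, SE 0.0658, adjusted p = 0.39). Ugdh, named after its values were seen and known for making UDP-glucuronate, rose by 0.46 and 0.44 (edgeR adjusted p = 1.41e-07 and 2.78e-07).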
